A study of Mus musculus with 9 samples.

Results

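Gene expression in the livers of mice fed a low-iron diet was compared with that of mice fed an iron-sufficient diet, across all measured genes. The comparison uses the 6 samples, of 9 in the series, whose titles name the low and the medium iron content, 3 mice on each diet. All were wild-type male C57BL/6 mice. From 5 weeks of age they ate AIN-93G, a purified rodent feed without soy, made up with 2.5 mg iron per kg (low) or 37.5 mg per kg (sufficient), for 50 days, and livers were taken at 12 weeks. The other 3 mice had the same feed with 1000 mg iron per kg (high). They share the fit's estimate of the spread, and their levels are given beside some genes. Whole liver was sequenced, so a lower value of a cell type's genes can mean fewer of those cells or less RNA from each, which cannot be told apart. Values of a diet are given in the order of the replicate numbers in the titles, 1, 5 and 9 for low iron, 2, 6 and 10 for sufficient iron, and 4, 8 and 12 for high iron.

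In low-iron livers, the hepcidin gene Hamp stood at 9.09 ± 11.2 CPM (gene counts scaled to a common library size), against 199 ± 72.2 CPM on the sufficient diet (mean ± SD, n = 3). Most genes of bone morphogenetic protein signalling, which drives Hamp, also had lower values, and the transferrin receptor gene Tfrc stood at 69.97 ± 34.96 against 26.9 ± 12.6 CPM. Drug-metabolising cytochromes P450 and nuclear genes of the respiratory chain leaned to higher values on low iron. Kupffer cell markers and interferon-stimulated genes leaned to lower ones, and did so on high iron too, against the same sufficient-iron mice. Of 13020 tested genes, 0 (0%) passed edgeR's quasi-likelihood test at a Benjamini-Hochberg adjusted p under 0.05, and the lowest adjusted p was 0.446. At an unadjusted p under 0.05 stood 754 genes with higher values on low iron (5.79%) and 704 with lower ones (5.41%). DESeq2, run as an alternative, gave an adjusted p to 1156 genes, none with a mean under 94.3 CPM. It called 101 of them higher (8.74%) and 4 lower (0.346%). Without its filter on the mean, it called 22 higher and 7 lower among the 13020 genes.

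Liver cells sense iron in plasma and in stores and answer with hepcidin, a hormone that makes cells withdraw the iron exporter ferroportin from their surface. Sinusoidal endothelial cells release the ligand BMP6 when liver iron is high. BMP6 acts on hepatocytes through SMAD proteins, which switch on Hamp and a set of feedback genes. Inside cells a second system works on messenger RNA: when iron is scarce, iron regulatory proteins bind stem-loops called iron-responsive elements, which blocks translation where the element lies before the coding sequence and protects the messenger where it lies after it.

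Libraries held 22 to 28.7 M gene reads on low iron and 26 to 33.8 M on sufficient iron. Rn45s, the ribosomal RNA precursor, took 43.7%, 23.8% and 17.9% on low iron and 23.05%, 12.5% and 18.04% on sufficient iron of them. Low-iron replicate 1 and sufficient-iron replicate 6 stood at opposite ends of the first principal component of log2 CPM (35.8% of the variance), with the other 4 samples between them. Short transcripts also read relatively higher on low iron: the rank correlation of centred log2 CPM with transcript length was -0.376, 0.132 and -0.0951 on low iron and 0.213, 0.338 and 0.196 on sufficient iron, so that the diets did not overlap. What share of a difference these features account for was not tested. Hepatocyte markers such as Ttr, the plasma carrier transthyretin (7884, 4226 and 5147 against 4037, 3399 and 3801 CPM), were abundant in all 6 samples.

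Individual low-iron livers held Hamp at 21.8, 0.805 and 4.62 CPM, and sufficient-iron livers at 186, 134 and 276 CPM. Every low-iron value lay below every sufficient one, with replicate 1 the highest of the low-iron mice. The log2 fold change (low minus sufficient) was -4.55 ± 0.88 (SE, edgeR, adjusted p = 0.446), and -6.20 without low-iron replicate 1. Hamp2, a neighbouring gene of nearly the same sequence, was at 43.4, 5.30 and 6.59 CPM on low iron and 49.01, 31.4 and 52.3 CPM on sufficient iron. Here low-iron replicate 1 lay among the sufficient-iron mice, and the log2 fold change of -1.32 ± 0.66 (adjusted p = 0.464) became -2.90 without that sample, with an edgeR adjusted p of 0.00607. Hamp2 was the single gene called in that setting (0.00755% of the genes tested). Per library, Hamp had 0.504, 0.152 and 0.701 times the CPM of Hamp2 on low iron and 3.80, 4.26 and 5.29 times on sufficient iron, where the diets did not overlap. On high iron, Hamp reached 625, 957 and 563 CPM and Hamp2 121, 154 and 117 CPM. Non-unique alignments are counted in a category of their own in the tables, and how reads shared by the pair were treated is not stated, so the split between Hamp and Hamp2 is uncertain.

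The start regions of the pair are shown because the BMP signal reaches Hamp through them. Each run is the 250 bases upstream of the RefSeq start on the minus strand (GRCm38.p6), at chr7:30944030-30944279 for Hamp and chr7:30924182-30924431 for Hamp2, and capitals mark matches to the BMP-responsive core GGCGCC or to the STAT3-type motif TTCNNNGAA, both searched on both strands.
Hamp: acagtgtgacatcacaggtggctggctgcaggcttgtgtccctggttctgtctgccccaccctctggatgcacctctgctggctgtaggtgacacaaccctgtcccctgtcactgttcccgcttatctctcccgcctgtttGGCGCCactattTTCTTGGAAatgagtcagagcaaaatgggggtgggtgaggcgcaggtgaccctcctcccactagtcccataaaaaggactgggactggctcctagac
Hamp2: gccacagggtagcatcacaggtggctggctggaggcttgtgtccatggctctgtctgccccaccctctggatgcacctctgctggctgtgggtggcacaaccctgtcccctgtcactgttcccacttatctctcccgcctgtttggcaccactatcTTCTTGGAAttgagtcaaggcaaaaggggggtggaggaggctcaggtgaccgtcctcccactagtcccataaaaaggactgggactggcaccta
Hamp carries GGCGCC 109 to 104 bases before its start and TTCTTGGAA 97 to 89 bases before it. Hamp2 has TTCTTGGAA at 94 to 86 bases and no GGCGCC in this window, where the aligned letters are GGCACC (G4A, counted from the motif's first base, Hamp first). Over 247 aligned bases, 227 (91.9%) were identical. Of 32851 RefSeq promoters, searched in the same 250 bases before the start, 9.59% hold GGCGCC and 7.02% hold TTCNNNGAA.

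Among 21 genes of hepcidin and BMP-SMAD signalling, 20 had a negative log2 fold change (median -0.59, against a median of -0.004 over all tested genes, of which 49.4% were positive). Of these, 11 stood at an unadjusted p under 0.05 (5.41% of all genes with lower values), and in 9 the diets did not overlap. Over all genes the latter held for 1019 with lower values (7.83%) and 1147 with higher values (8.81%). None of the 21 passed the test over all genes in edgeR. Bmp6, the ligand gene, was at 2.42, 1.98 and 1.90 CPM on low iron and 3.72, 3.52 and 5.22 CPM on sufficient iron. All 3 low-iron values lay below the sufficient ones (log2 fold change -1.003 ± 0.22, adjusted p = 0.446). The Id genes encode inhibitors of basic helix-loop-helix factors and are immediate BMP targets. Id1 was at 1.95, 1.02 and 1.69 against 3.32, 3.20 and 15.95 CPM, where replicate 10 alone lifted the sufficient-iron mean. Id3 was at 18.02, 8.71 and 13.5 against 33.7, 21.5 and 51.4 CPM and did not overlap either (log2 fold change -1.42 ± 0.37). Id2, expressed more strongly, was at 96.3, 63.8 and 83.1 against 101, 101 and 160.1 CPM.

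Smad7 and Smad6 encode the inhibitory SMADs that close the feedback loop. Smad7 was at 6.24, 4.28 and 4.83 CPM on low iron and 10.9, 7.16 and 21.4 CPM on sufficient iron, without overlap (log2 fold change -1.38 ± 0.39, adjusted p = 0.446), and -0.84 without sufficient-iron replicate 10. Smad6 was at 5.15, 4.43 and 4.51 against 6.23, 5.13 and 10.02 CPM, and its diets overlapped. Atoh8, a transcription factor gene of the same response, was at 7.80, 4.83 and 5.29 against 13.2, 8.81 and 22.5 CPM. Smad9, which encodes a SMAD of the BMP branch, was at 5.70, 2.96 and 7.29 against 9.58, 7.53 and 9.24 CPM and at 25.9, 26.05 and 34.1 CPM on high iron. The list's median stayed between -0.48 and -0.75 when any single sample was left out, and was -0.60 with the length trend removed. Bmp6 comes from endothelium in liver, and of 14 sinusoidal endothelial markers 13 had negative values (median -0.31, or -0.15 without low-iron replicate 1). Of the 14, 2 stood at an unadjusted p under 0.05 with lower values, against 5.41% of all genes. Among these 2 is a BMP ligand gene that the BMP-SMAD list also holds. The summed CPM of the markers was 299.7 to 459.5 on low iron and 429.3 to 500.2 on sufficient iron. The part of these cells in the Bmp6 difference was not tested.

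**Figure D1:**
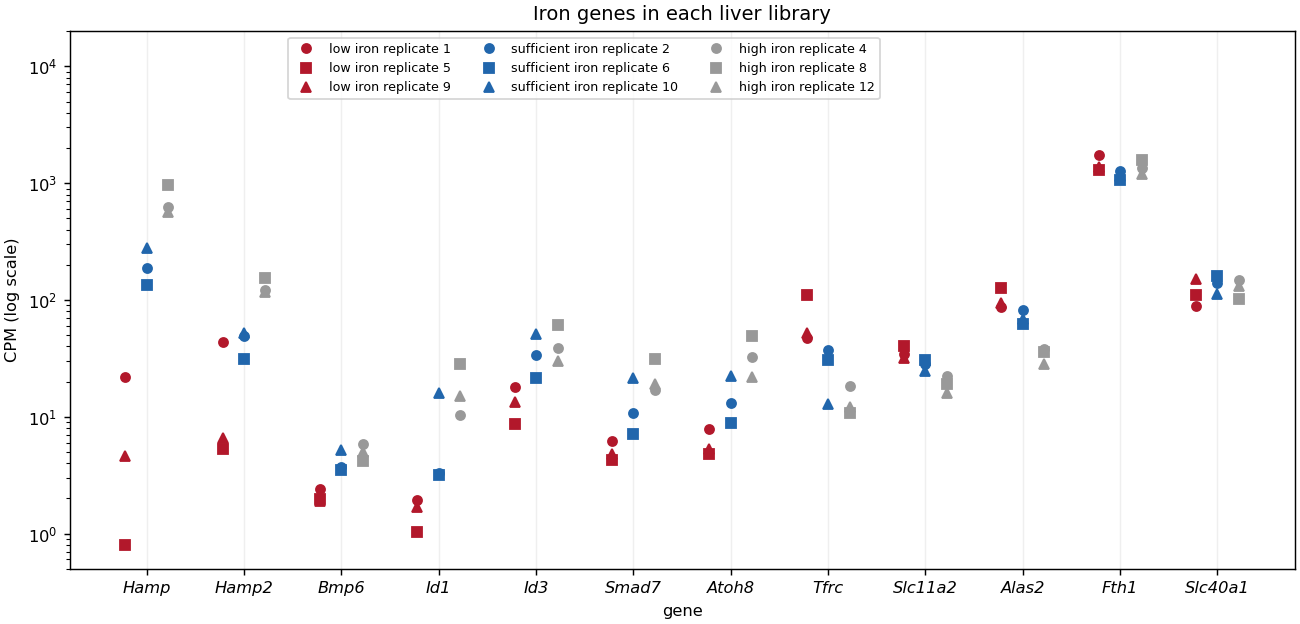
CPM of 12 iron genes (log axis) in each of the 9 libraries; colour gives the diet and marker shape the replicate. Hamp spans 0.805 to 21.8 CPM on low iron and 134 to 276 CPM on sufficient iron, and Tfrc spans 47.5 to 110.2 CPM on low iron and 12.8 to 36.9 CPM on sufficient iron.

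Iron-responsive elements mark the messengers under iron regulatory proteins, and those found in the genes described next are shown for that reason. They were found as a C, 5 bases, the loop CAGUGN (N being A, C or U) and 5 bases able to pair with the first 5, G with U included. Capitals mark the loop, and coordinates are GRCm38 with GENCODE transcripts.
Tfrc, after the coding sequence, chr16:32631225-32631241: cggaagCAGUGCcuucc
Tfrc, chr16:32631604-32631620: cgggagCAGUGUcuucc
Tfrc, chr16:32631669-32631685: cggagaCAGUGAucucc
Tfrc, chr16:32631716-32631732: cgggaaCAGUGUuuccc
Alas2, before the coding sequence, chrX:150547464-150547480: cguccuCAGUGCagggc
Fth1, before the coding sequence, chr19:9982738-9982754: cuucaaCAGUGCuugaa
Ftl1, before the coding sequence, chr7:45459785-45459801 (minus strand): cuucaaCAGUGUuugaa
Slc40a1, before the coding sequence, chr1:45925471-45925487 (minus strand): cagcuaCAGUGUuagcu
The same search found a match in 222 of 21877 coding genes (1.01%).

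Tfrc encodes the receptor that takes up transferrin-bound iron, and the search found 4 elements after its coding sequence. It was at 47.5, 110.2 and 52.2 CPM on low iron and 36.9, 30.8 and 12.8 CPM on sufficient iron. All 3 low-iron values lay above the sufficient ones, with replicate 5 far above the other 2 (log2 fold change 1.39 ± 0.41, adjusted p = 0.446, and 0.90 without replicate 5). On high iron it was at 18.2, 10.7 and 12.1 CPM. Slc11a2, the divalent metal transporter gene, was at 34.2, 40.02 and 31.96 against 28.4, 30.4 and 24.6 CPM. Its diets did not overlap either (log2 fold change 0.35 ± 0.15). The search found no element in it, but required all 5 pairs. An element with an unpaired base in that stem would be missed, so the gene may still hold an element. Genes with the element before the coding sequence differed among themselves. Alas2, the red-cell form of the first haem synthesis enzyme, was at 86.9, 126 and 93.7 CPM on low iron, 81.5, 62.3 and 69.1 CPM on sufficient iron and 38.4, 35.8 and 28.1 CPM on high iron, with no overlap between the low and the sufficient diet. Ferritin stores iron in a shell of heavy and light chains. The heavy chain gene Fth1 was at 1729.7, 1292 and 1375 against 1274, 1059 and 1161 CPM without overlap (log2 fold change 0.33 ± 0.15, adjusted p = 0.45). This value was 0.18 without low-iron replicate 1 and 0.16 with the length trend removed. The light chain gene Ftl1 overlapped, at 4161, 2276 and 2689 against 2617, 2295 and 2495 CPM, and its log2 fold change of 0.30 rested on low-iron replicate 1, without which it was -0.003. Slc40a1, which encodes ferroportin, also overlapped (89.3, 111 and 152 against 140.0, 159.7 and 113 CPM).

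In the list of 19 tested iron uptake, storage and export genes, the median log2 fold change was 0.04, with 2 members at an unadjusted p under 0.05 higher and 4 lower. Over all genes these shares were 5.79% and 5.41%. Ncoa4, the receptor that carries ferritin to lysosomes for breakdown, was among the lower ones at 98.9, 141 and 139 against 166, 183 and 147 CPM, without overlap. Heph, a copper-dependent iron oxidase, was at 0.702, 1.17 and 1.30 against 1.24, 2.85 and 2.10 CPM and overlapped. Slc39a14, an importer of iron not bound to transferrin, was at 98.4, 123 and 148 against 132, 119 and 139 CPM and the ferroxidase gene Cp at 871, 797 and 881 against 770.3, 1059 and 648 CPM, both overlapping. Of the receptors and proteases that set the hepcidin response, 0 of 7 tested reached an unadjusted p under 0.05, and the list's median was 0.00. Tfr2, the second transferrin receptor, was at 183, 228 and 217 against 193, 168 and 182 CPM. Hfe, the haemochromatosis protein gene, was at 30.3, 38.2 and 35.1 against 37.5, 34.7 and 32.5 CPM, and Hfe2, the gene of the BMP co-receptor hemojuvelin, at 123, 76.9 and 81.6 against 90.5, 66.9 and 96.7 CPM. Tmprss6, the protease that cuts hemojuvelin, was at 284, 349 and 319.7 against 344, 284 and 325 CPM, and transferrin (Trf) at 8393, 10093 and 10410.3 against 7914, 10545 and 8698 CPM. In all 5 the diets overlapped; the log2 fold changes ran from -0.01 for Hfe to 0.21 for Tfr2, with SEs of 0.11 to 0.19. Of 9 genes for iron regulatory proteins and chaperones, Ncoa4, which the list also holds, was the single one at an unadjusted p under 0.05.

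The direction of the difference went with how abundant a gene was. Of 1090 genes with a mean above 100 CPM, 77.5% had positive values (median 0.15), with 232 higher and 13 lower at an unadjusted p under 0.05. Of 1499 genes below 1 CPM, 36.5% were positive (median -0.23), with 30 higher and 130 lower. Genes from 1 to 10 CPM were 43.1% positive and those from 10 to 100 CPM 52.5%. Left without low-iron replicate 1, the most abundant genes were 79.5% positive, with 183 higher and 14 lower; with the length trend removed they were 75.5% positive, with 172 higher and 12 lower. The median member stood at 169 CPM in the P450 list and 127 CPM in the oxidative phosphorylation list, against 23.6 CPM in the Kupffer cell list, 8.60 CPM in the interferon list and 3.31 CPM in the cell cycle list.

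**Figure D2:**
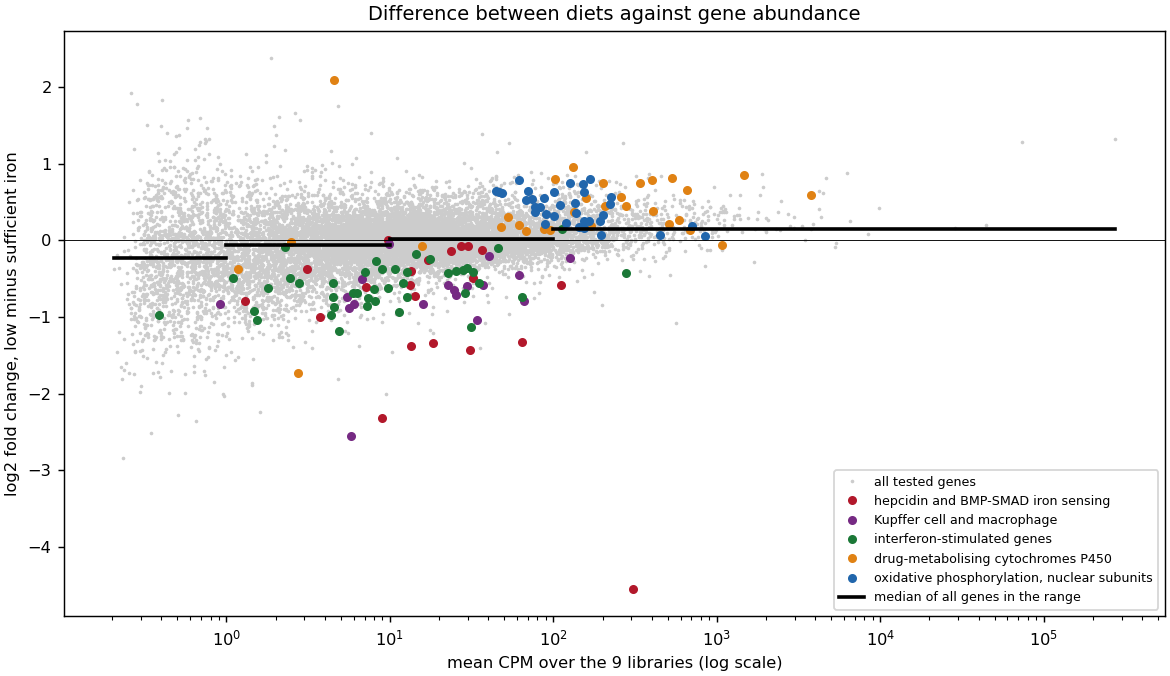
Log2 fold change (low minus sufficient iron) against mean CPM over the 9 libraries (log axis) for all tested genes in grey, 5 gene lists in colour and the median of each abundance range as a black bar. The bars climb from -0.23 below 1 CPM to 0.15 above 100 CPM.

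Haem synthesis genes had a median log2 fold change of 0.24, with 11 of 13 positive and 3 at an unadjusted p under 0.05 with higher values (5.79% of all genes). The median was 0.11 without low-iron replicate 1, 0.15 without sufficient-iron replicate 6 and 0.12 with the length trend removed. Beside Alas2 these were Urod (68.7, 51.1 and 54.9 against 43.3, 44.7 and 42.9 CPM) and Alad (116, 94.2 and 93.8 against 89.4, 78.8 and 73.8 CPM), enzymes of the middle steps, neither with overlap. Alas1, the liver form of the first enzyme, ranged widely on both diets (105, 137 and 285 against 77.3, 243 and 44.2 CPM). Because Alas2 also marks young red cells, erythroid markers bear on it: Beta-s, a beta-globin gene, was at 75.3, 32.1 and 44.8 against 39.03, 23.2 and 36.3 CPM and overlapped, and the alpha-globin genes and Gata1 were listed at 0 in all 6 samples. Hbb-b1 and Hbb-b2 were also at 0. How reads shared by globin genes were treated is not stated, so the globin zeros are no measure of red cells. Of the 11 erythroid markers, 3 could be tested and all 3 had positive values. Their summed CPM, mostly Alas2 itself, was 140.2 to 164.1 on low iron and 86.3 to 121.6 on sufficient iron, and the part of red cells in the Alas2 difference was not tested. Haem oxygenase (Hmox1), which frees iron from haem, was at 18.9, 15.1 and 20.6 against 20.2, 25.9 and 25.9 CPM, and the haem carrier Hpx at 1636, 1524 and 2117 against 1471, 3261 and 1691 CPM, both overlapping.

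Iron-sulfur clusters and haem are the cofactors of the respiratory chain. Of 26 genes for cluster assembly, 23 had positive values (median 0.22), and 3 stood at an unadjusted p under 0.05 with higher values (5.79% of all genes). The scaffold gene Iscu was at 125, 71.6 and 72.4 against 62.1, 53.3 and 59.9 CPM and the ferredoxin gene Fdx1 at 59.99, 47.2 and 49.8 against 43.1, 35.03 and 42.8 CPM, both without overlap. All 35 nuclear genes of oxidative phosphorylation had positive values (median 0.44), 24 of them at an unadjusted p under 0.05 (5.79% of all genes were, with higher values) and 24 without overlap (8.81% of all genes). Of 1090 genes above 100 CPM, 232 stood at that p with higher values. Sdhb, the iron-sulfur subunit of complex II, was at 241, 157 and 169 CPM on low iron and 134, 103 and 129 CPM on sufficient iron, with low-iron replicate 1 highest. Ndufv1, which holds a cluster in complex I, was at 105, 103 and 97.8 against 83.5, 78.8 and 78.8 CPM, and Ndufa9 of the same complex at 94.7, 83.2 and 88.8 against 74.2, 66.1 and 66.01 CPM. The 3 low-iron values of these subunit genes all lay above the sufficient ones. Ndufaf6, a complex I assembly factor gene outside the list, was at 13.03, 10.4 and 10.9 against 7.80, 6.37 and 6.68 CPM (log2 fold change 0.72 ± 0.15). The median of the 35 subunit genes dropped to 0.25 without low-iron replicate 1 and to 0.20 with the length trend removed, where 12 members stood at an unadjusted p under 0.05. In replicate 1 the list lay 0.57 above the mean of the 6 samples on the log2 scale, and in sufficient-iron replicate 6 it lay 0.40 below it (a value of -0.40); the other 4 samples lay between -0.16 and 0.14. For the assembly genes both settings gave a median of 0.12, and leaving out sufficient-iron replicate 6 gave 0.14.

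**Figure D3:**
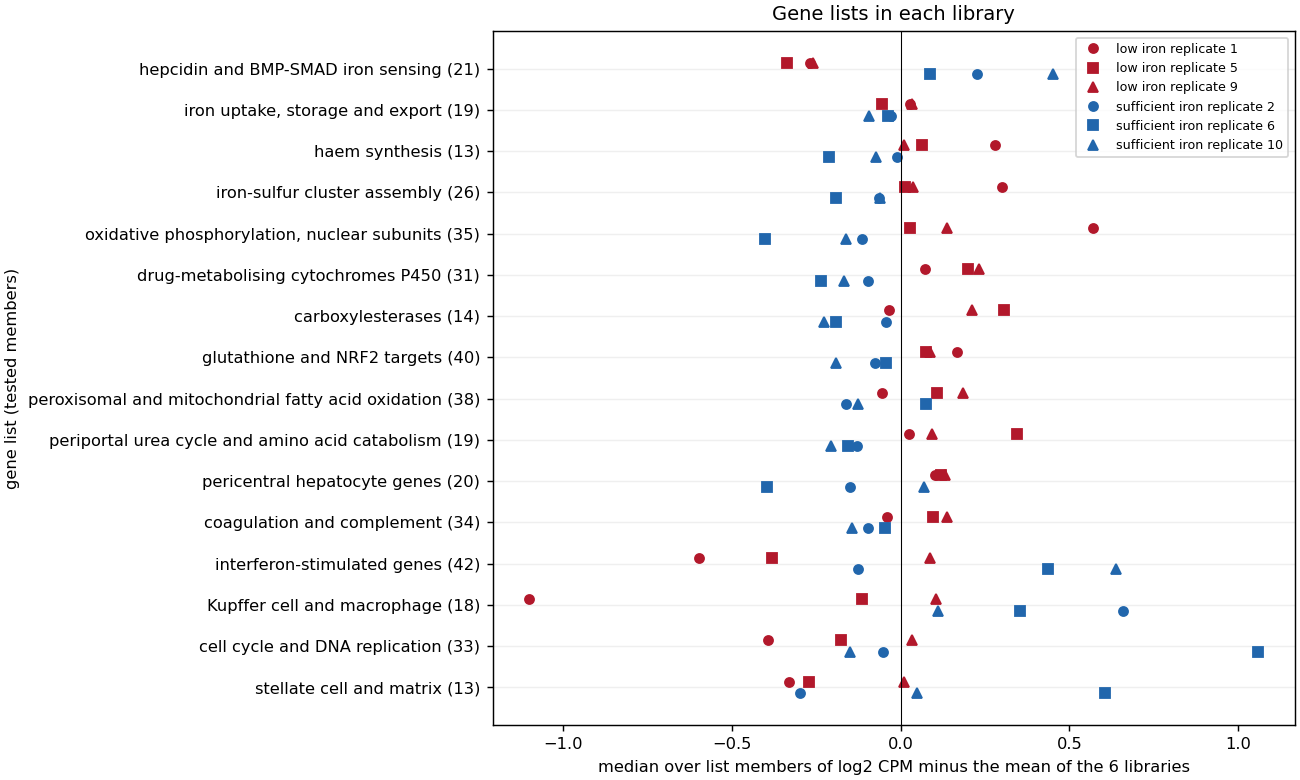
Median over each list's members of log2 CPM minus the mean of the 6 libraries, for 16 gene lists; colour gives the diet and marker shape the replicate. Low-iron replicate 1 and sufficient-iron replicate 6 hold the extremes of several lists (0.57 and -0.40 for oxidative phosphorylation), and in both the oxidative phosphorylation and the P450 list all 3 low-iron libraries lie above all 3 sufficient ones.

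Cytochromes P450 are haem enzymes that oxidise drugs, steroids and fatty acids. Of 31 drug-metabolising members (P450s and their electron donors), 26 had positive values (median 0.37). At an unadjusted p under 0.05, 16 had higher values and 0 lower ones. The former held for 5.79% of all genes and 232 of 1090 above 100 CPM. Cyp1a2, an oxidiser of caffeine and aromatic amines, was at 484, 382 and 521 CPM on low iron and 291, 206 and 326 CPM on sufficient iron. Its 3 low-iron values lay above the sufficient ones (log2 fold change 0.75 ± 0.20). Cyp2a12 was at 244, 274 and 280.2 against 202, 189 and 192 CPM and Cyp3a25 at 327, 325 and 311 against 201, 234 and 272 CPM, also without overlap. Cyb5, the electron donor cytochrome b5, was at 973, 627 and 765 against 531, 443 and 529 CPM. The list's median stayed between 0.33 and 0.42 when any single sample was left out and was 0.31 with the length trend removed. DESeq2 gave an adjusted p to 21 of the 31 and called 12 higher, against 8.74% of the genes to which it gave one.

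Carboxylesterases hydrolyse esters of drugs and lipids. In this family 13 of 14 tested genes had positive values (median 0.26, or 0.41 without low-iron replicate 1). Of them 5 stood at an unadjusted p under 0.05, against 5.79% of all genes and 232 of 1090 above 100 CPM. The list's median member was at 132 CPM. Ces1e, the gene with the lowest p among those with higher values, was at 154, 148 and 145 CPM on low iron and 105, 98.6 and 94.4 CPM on sufficient iron, a narrow spread on both diets (log2 fold change 0.58 ± 0.11, adjusted p = 0.446). Ces2a was at 166, 179 and 155 against 114, 93.4 and 119 CPM and Ces3a at 885, 959 and 907 against 755, 537 and 691 CPM, neither with overlap. Aadac, an esterase of the same compartment, was at 426, 470.1 and 463 against 355, 293 and 283 CPM. Gstk1, a glutathione transferase of mitochondria and peroxisomes, was at 156, 139 and 120.2 against 89.02, 68.7 and 90.3 CPM, and Sod2, the manganese superoxide dismutase gene, at 167, 146 and 149 against 128, 118 and 115 CPM. They belong to a list of 40 glutathione and NRF2 target genes, 27 of them with positive values (median 0.20). In this list 14 stood at an unadjusted p under 0.05 with higher values, against 5.79% of all genes and 232 of 1090 above 100 CPM. The list's median member was at 109 CPM. Its median log2 fold change was lower in 3 other settings, 0.099 without low-iron replicate 1, 0.10 without sufficient-iron replicate 10 and 0.095 with the length trend removed. Members of the P450, esterase and transferase families share sequence, so their counts are uncertain where reads could not be placed uniquely.

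Of 38 fatty acid oxidation genes 31 had positive values (median 0.14), with 6 higher and 1 lower at an unadjusted p under 0.05. The median was 0.079 without low-iron replicate 9 and 0.22 without sufficient-iron replicate 6. With all samples in, the list was near all genes above 100 CPM (77.5% positive, median 0.15, 232 of 1090 higher), the range of the list's median member at 197 CPM. Cyp4a10, which hydroxylates the end of fatty acids, was at 299, 344 and 294 CPM on low iron, 187, 185 and 153 CPM on sufficient iron and 469.8, 578 and 364 CPM on high iron, so that both other diets lay above the sufficient one. Acaa1b, a peroxisomal thiolase gene, ran likewise at 848, 1003 and 774, 638, 683 and 622 and 1188, 1359.6 and 1058 CPM. The low and the high diet share the same sufficient-iron mice in these comparisons. Acsm1, a mitochondrial acyl-CoA synthetase gene, was at 238, 212 and 221 against 162, 158 and 151 CPM, and Car3, an abundant carbonic anhydrase gene, at 2779, 2605 and 3078 against 2071, 1457 and 1714 CPM. In neither did the diets overlap.

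Genes of both ends of the liver lobule had positive medians. At an unadjusted p under 0.05 with higher values stood 5.79% of all genes, 232 of 1090 above 100 CPM and 365 of 5861 from 10 to 100 CPM. The median member was at 280 CPM in the periportal list and 46.5 CPM in the pericentral list. Of 19 periportal genes for the urea cycle and amino acid breakdown, 17 were positive (median 0.32, 7 at an unadjusted p under 0.05). Otc, the urea cycle's ornithine carbamoyltransferase, was at 378, 418 and 409 CPM on low iron and 298, 267 and 279 CPM on sufficient iron. Asl, the next-but-one enzyme, was at 275, 315 and 261 against 204, 191 and 169 CPM, and Hpd, of tyrosine breakdown, at 1319.9, 1259 and 1148 against 842, 568 and 892 CPM. All 3 kept the diets apart. Of 20 pericentral genes, 15 were positive (median 0.21, 6 at an unadjusted p under 0.05). Their median was 0.079 without sufficient-iron replicate 6 and 0.36 without replicate 10. Oat, an ornithine aminotransferase gene, was at 553, 860.0 and 867 against 487, 488 and 539 CPM, and Gulo, the last enzyme of vitamin C synthesis in mice, at 359.8, 334 and 329.6 against 258, 215 and 278 CPM. Lgr5, a Wnt pathway receptor of the cells around the central vein, was at 9.28, 8.08 and 5.71 against 4.34, 5.34 and 5.55 CPM. Among 34 coagulation and complement genes, 30 were positive (median 0.14, 7 at an unadjusted p under 0.05), a median and a share at that p near those of all genes above 100 CPM. Kng1, the kininogen gene, was at 1176, 993 and 1149 against 827, 838 and 780.0 CPM. Igfals, the liver's partner of circulating IGF1, was at 61.6, 54.3 and 66.8 against 50.7, 35.1 and 40.04 CPM, and Igf1 at 572, 416 and 514 against 411, 393 and 391 CPM. Hepatocyte markers leaned the same way: 8 of 9 were positive (median 0.21, from 0.056 to 0.33 with 1 library left out, and 0.13 with the length trend removed), and their summed CPM was 76868 to 84948 on low iron and 60888 to 83760 on sufficient iron. The part of that shift in the hepatocyte lists was not tested.

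Kupffer cells, the liver's resident macrophages, clear old red cells and recycle their iron. Of 18 Kupffer cell and macrophage markers, 18 had negative values (median -0.68), 11 at an unadjusted p under 0.05 (5.41% of all genes with lower values) and 10 without overlap (7.83% of all genes). Marco, a scavenger receptor gene, was at 0.468, 2.01 and 2.50 CPM on low iron and 15.5, 6.44 and 9.82 CPM on sufficient iron (log2 fold change -2.55 ± 0.55, adjusted p = 0.446). The low-iron values lay well below the sufficient ones, replicate 1 lowest. Slc11a1, the metal transporter of the phagosome, was at 3.12, 3.91 and 4.65 against 6.52, 7.64 and 5.52 CPM, C1qc, a complement chain made by macrophages, at 11.5, 21.4 and 26.04 against 37.7, 31.8 and 28.4 CPM, and the lysozyme gene Lyz2 at 13.7, 28.2 and 27.2 against 65.01, 50.3 and 28.5 CPM. Summed over the list, the markers stood at 265.6, 489.9 and 554.7 CPM on low iron and at 767.1, 653.6 and 500.1 CPM on sufficient iron, so the sums overlapped. Without low-iron replicate 1 the median was -0.45. On high iron the list's median log2 fold change, against the same sufficient-iron mice, was -0.44. Itgax, a surface integrin of dendritic cells, was at 0.156, 0.146 and 0.881 against 0.947, 3.20 and 1.10 CPM, and Siglece, an inhibitory receptor gene of myeloid cells, at 1.01, 1.68 and 1.94 against 4.26, 2.92 and 2.81 CPM.

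Interferon-stimulated genes had negative values in 41 of 42 cases (median -0.56), 16 of them at an unadjusted p under 0.05 (5.41% of all genes) and 6 without overlap, which held for 7.83% of all genes. On high iron the list's median log2 fold change, against the same sufficient-iron mice, was -0.79. Irf7, the factor that amplifies the response, was at 25.3, 18.03 and 29.6 CPM on low iron and 31.2, 42.1 and 43.7 CPM on sufficient iron. Oas2, an RNA sensor gene, was at 0.546, 1.21 and 1.02 against 1.82, 2.14 and 2.01 CPM, and Cmpk2 at 4.84, 7.32 and 7.37 against 8.34, 11.9 and 12.9 CPM. In these 3 the diets did not overlap. As a list, low-iron replicate 9 lay at 0.09 and sufficient-iron replicate 2 at -0.13 around the mean of the 6 samples, so the diets met in the middle; sufficient-iron replicates 6 and 10 were highest at 0.44 and 0.64.

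Genes of the cell cycle had a median of -0.65 (28 of 33 negative), and 8 stood at an unadjusted p under 0.05 with lower values (5.41% of all genes). The median rested on 1 mouse: sufficient-iron replicate 6 lay 1.06 above the mean, and without it the median was -0.05. High iron against the same sufficient-iron mice gave a median of -0.47. Mki67, the proliferation marker, was at 1.17, 2.08 and 2.995 against 2.51, 11.8 and 2.76 CPM. Ccnd1, the cyclin D1 gene, kept its diets apart with or without that mouse, at 19.97, 13.02 and 21.7 against 31.7, 72.9 and 39.4 CPM (log2 fold change -1.40 ± 0.29, adjusted p = 0.446). Stellate cell and matrix genes had a median of -0.36, with 0 of 13 at an unadjusted p under 0.05, and -0.06 without the same mouse. Col1a1, a collagen gene of these cells, was at 5.85, 5.30 and 5.64 against 3.83, 33.8 and 7.75 CPM. Among cholangiocyte markers, 5 of 9 were at an unadjusted p under 0.05 with lower values. This held for 5.41% of all genes and for 130 of 1499 genes under 1 CPM. The list's median member was at 0.984 CPM, and with the length trend removed 3 members stood at that p with lower values. Spp1, the osteopontin gene, was at 21.7, 29.2 and 31.6 against 33.3, 63.6 and 47.1 CPM. The keratin gene Krt23 of the same list was higher on low iron, at 2.26, 7.75 and 3.84 against 1.97, 1.73 and 1.74 CPM, and stood at 13.3, 20.4 and 16.3 CPM on high iron. Its log2 fold change of 1.40 became 0.81 without low-iron replicate 5.

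**Figure D4:**
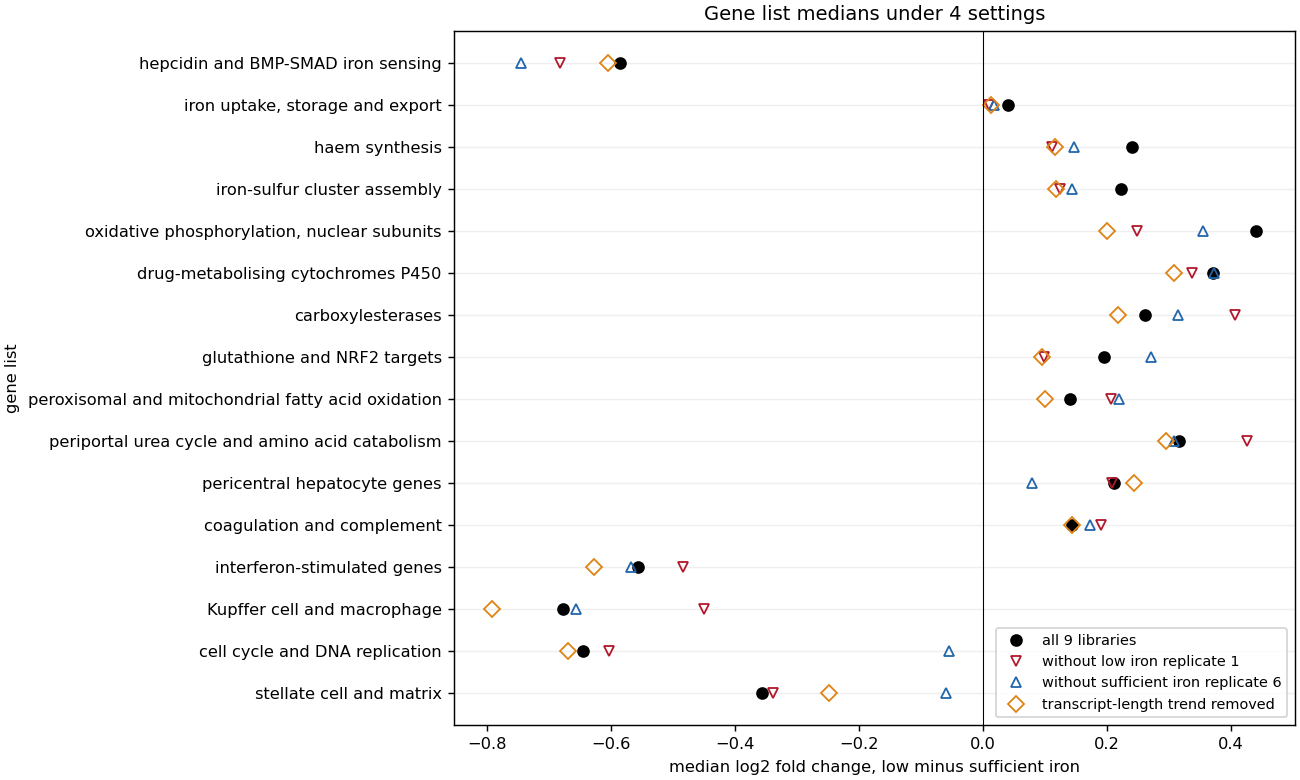
Median log2 fold change (low minus sufficient iron) of 16 gene lists in the fit of all 9 libraries and in 3 other settings. Lists that stay on their side of 0 include the BMP-SMAD, P450 and Kupffer cell lists. The oxidative phosphorylation list does so too while moving from 0.44 to 0.20. So does the cell cycle list, which moves from -0.65 to -0.05 without sufficient-iron replicate 6.

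Outside the lists, the genes with the lowest p and lower values included signalling and cytoskeletal genes. Map3k13, a kinase gene of the JNK pathway, was at 7.33, 11.6 and 9.30 CPM on low iron and 13.8, 20.97 and 20.3 CPM on sufficient iron. Esr1, the oestrogen receptor alpha gene, was at 3.90, 5.08 and 5.67 against 9.98, 11.5 and 7.53 CPM, and Actg1, a cytoplasmic actin gene, at 168, 131 and 138 against 188, 277 and 230.3 CPM. All were without overlap. On high iron Map3k13 was at 11.2, 10.9 and 12.1 CPM, Esr1 at 6.25, 3.90 and 6.09 CPM and Actg1 at 165, 143 and 148 CPM. These values also lay below all the sufficient ones. Fndc3b had nearly equal low-iron values, 19.97, 19.97 and 19.98 CPM, against 29.7, 33.7 and 25.97 CPM. Enho, which encodes the secreted peptide adropin, was at 0.858, 0.512 and 0.564 against 1.17, 4.10 and 1.38 CPM, with sufficient-iron replicate 6 far above the rest. Among genes with large positive values, Gpx6, a glutathione peroxidase gene, was at 4.21, 1.500 and 1.90 against 0.838, 0.644 and 1.10 CPM, and Ppp1r3g, a glycogen-targeting phosphatase subunit gene, at 14.5, 2.27 and 3.28 against 2.004, 1.61 and 2.04 CPM. In both, low-iron replicate 1 was highest, and without it the log2 fold change went from 1.49 to 0.97 for Gpx6 and from 1.75 to 0.55 for Ppp1r3g. Mup21, a major urinary protein gene of a family with near-identical members, was at 314, 305 and 216 against 194, 54.9 and 126 CPM. Slc15a2, a peptide transporter gene, was at 2.03, 1.83 and 6.10 against 0.437, 1.68 and 1.21 CPM.

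**Figure D5:**
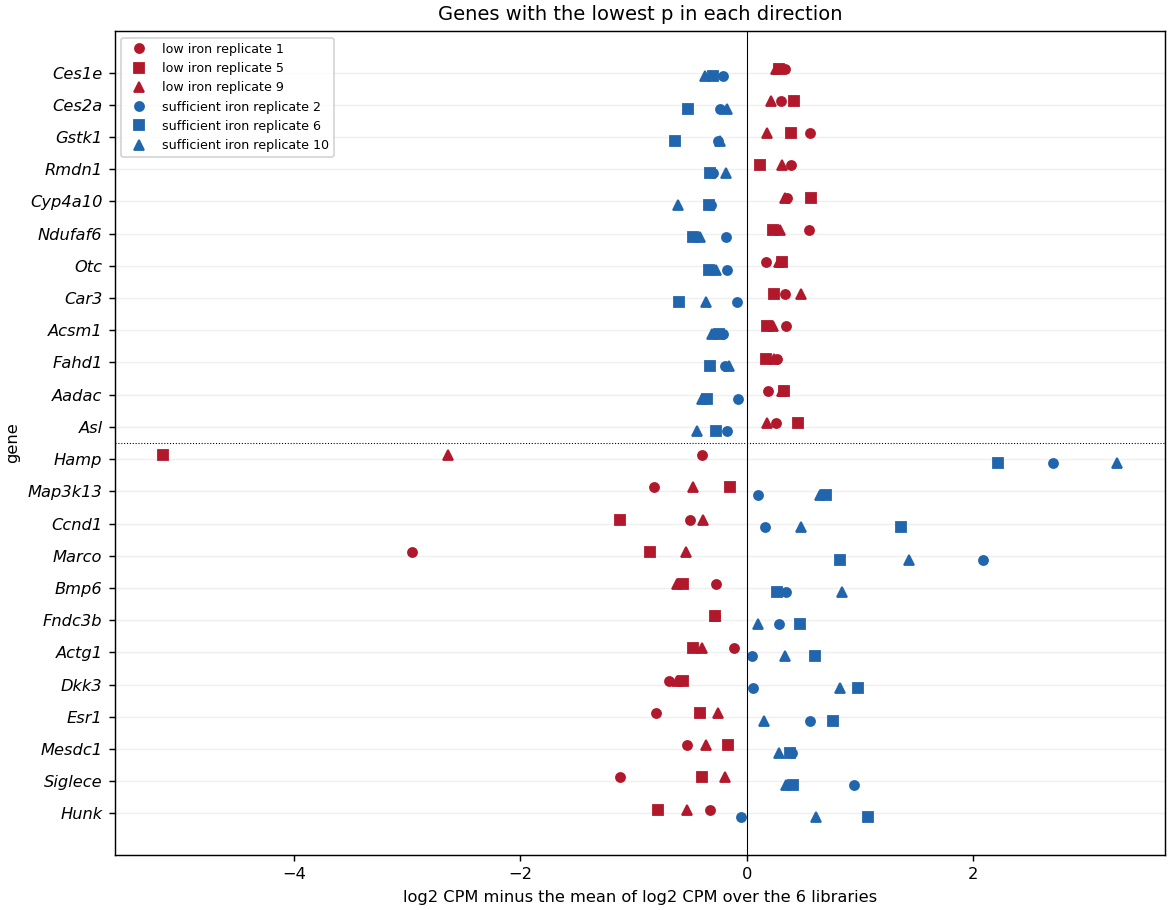
Log2 CPM minus the mean over the 6 libraries for the 12 genes with the lowest p in each direction (higher on low iron above the dotted line, lower below it); colour gives the diet and marker shape the replicate. The diets do not overlap in any of the 24, as the naming rule required, and Hamp and Marco have the widest spread among low-iron libraries.

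DESeq2 gave an adjusted p to the 1156 genes that its filter on the mean kept, none with a mean under 94.3 CPM. It called 101 of them higher (8.74%) and 4 lower (0.346%). In 98 of the 101 the diets did not overlap. Otc (5.37e-05), Ces1e (8.17e-05), Ces2a (0.000192), Acsm1 (0.000362) and Aldh7a1 (0.000279), an aldehyde dehydrogenase gene at 349, 369 and 356 against 283, 261 and 268 CPM, had the lowest DESeq2 adjusted p among the higher genes, with Cyp4a10 (0.000452). The 4 lower genes were Hamp (DESeq2 adjusted p = 0.000207), Actg1 (0.00464), Sec14l4 (0.015; 76.9, 117 and 108 against 147, 140.4 and 150.1 CPM) and Csad (0.0481), the taurine synthesis gene, whose diets overlapped at 161, 143 and 119 against 201, 396 and 157 CPM. Without that filter DESeq2 called 29 genes, 22 higher and 7 lower, 21 of them shared with the first set; the 7 were Hamp, Bmp6, Id3, Ccnd1, Map3k13, Actg1 and Fndc3b. Limma-voom called 0, and with sample quality weights it called Hamp and Hamp2 (0.0154% of the genes).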

How the data were processed

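Liver RNA was made into libraries with the Illumina TruSeq RNA kit and sequenced on a HiSeq instrument, per the labels' protocols. The authors deposited, for each mouse, an unnormalised count of reads for 23420 gene symbols, followed by 5 category entries that were dropped. FastQC, mm10 and mm9 are named in the submitters' processing notes, with no role for either build. Aligner, counting program and strand setting: not given in the sources used here. Therefore overlapping and antisense genes cannot be told apart. Gene reads per library ranged from 22 to 33.8 M over the 6 samples.

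Testing used edgeR 4.0.16 (R 4.3.3): filterByExpr kept 13020 genes, TMM scaled the libraries, and a robust quasi-likelihood model of all 9 libraries with diet as its only term gave the contrast of low minus sufficient iron. The Benjamini-Hochberg adjustment ran over all 13020 genes, and the threshold was 0.05. CPM uses TMM-scaled library sizes, and log2 CPM a prior count of 2. SE denotes an approximate standard error, the absolute log2 fold change divided by the square root of its quasi-likelihood F statistic. Each diet had 3 separate mice, as the labels state. Transcript lengths are those of the longest coding transcript in GENCODE, found for 99.3% of the tested genes. Iron-responsive elements come from the same annotation and promoters from RefSeq. The model was also run on simulated counts, with the same spread for every gene and no outlying library. Because the real libraries differ in this, that run does not test the calls made here.

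The gene lists (28 of pathways and 10 of cell types) and the genes to name were chosen with earlier results of these data known, and lists were described by counts and medians, with no test of a list. Named genes were a panel of 26 iron genes; in each direction the 12 lowest p and the 8 largest fold changes among genes at an unadjusted p under 0.05 whose mean reached 1 CPM and whose diets did not overlap; up to 4 lowest p of each list; and the 6 lowest adjusted p of DESeq2. Markers listed at 0 were named besides, and 1 item is not reported here. Alternatives were other scalings and filters, DESeq2 1.42.0, limma 3.58.1 (voom, with and without quality weights), the 6 libraries alone, each left out in turn, low-iron replicate 1 and sufficient-iron replicate 6 left out together, Rn45s and Lars2 left out, the set of consecutive title numbers as a term, the length trend removed, and a threshold of 0.1. DESeq2 without its independent filtering was added after seeing the data.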

Additional observations from a re-analysis of the deposited data

How the results depend on the processing

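No gene passed in edgeR under the main settings, the other 2 scalings, both other filters, a threshold of 0.1, limma-voom, the 6 libraries alone, Rn45s and Lars2 left out, the title-number set or the length trend removed. DESeq2 called 105 genes, DESeq2 without independent filtering 29, limma-voom with quality weights 2 (Hamp and Hamp2), and edgeR without both low-iron replicate 1 and sufficient-iron replicate 6 called 1 (Hamp2). With each library left out in turn the calls ranged from 0 to 1, the 1 being Hamp2 without low-iron replicate 1. Genes at an unadjusted p under 0.05 with higher values numbered 754 in the main fit, 499 with the 6 libraries alone and 441 without both replicates, and from 349 (without sufficient-iron replicate 6) to 1080 (without low-iron replicate 5) with 1 library left out; without low-iron replicate 1 there were 404. Those with lower values numbered 704, 417 without both, and 356 to 848 with 1 library left out. The cause of these shifts was not tested.

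Of 95 named genes over 19 alternatives, 31 of 1804 values changed sign and 55 passed the threshold of their test. The sign changes were in 9 iron genes, none of them called. Tmprss6 went to 0.0023 with DESeq2 size factors, 0.0027 in both DESeq2 runs, 0.0027 with Rn45s and Lars2 left out and 0.020 with the length trend removed. Hfe went to 0.027 with quality weights, 0.031 with the length trend removed and 0.067 without both replicates. Hfe2 went to -0.096 with quality weights and -0.24 without both, and Hpx to 0.11 and 0.20 in the same settings. Ftl1 went to -0.042 without both and -0.024 with the length trend removed. Slc39a14 went to 0.020 with quality weights and 0.014 with the length trend removed, and Slc40a1 to 0.015 with quality weights and 0.053 without both. With 1 library left out, values ranged over -0.080 to 0.063 for Tmprss6, -0.088 to 0.060 for Hfe, -0.11 to 0.27 for Hfe2, -0.49 to 0.15 for Hpx, -0.0031 to 0.47 for Ftl1, -0.24 to 0.050 for Slc39a14, -0.12 to 0.26 for Cp and -0.018 to 1.5 for Alas1. No label pairs the mice and the diets share no replicate number, so the main fit had no pairing term. A fit with the set of consecutive title numbers as a term, which no label says ties the mice together, called 0 genes, with 649 higher and 659 lower at an unadjusted p under 0.05. Depth is not the same in the 6 libraries, and 3 mice per diet limit what can be called.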

Other observations

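Further gene groups were measured beside those above. For comparison, 5.79% of all genes stood at an unadjusted p under 0.05 with higher values and 5.41% with lower ones. Of 7 tested monocyte and neutrophil markers 6 had negative values (median -0.86, 2 at an unadjusted p under 0.05 with lower values). Their median member was at 1.21 CPM. Sufficient-iron replicate 6 lay highest, 0.97 above the mean of the 6 samples on the log2 scale. Over all settings the median ran from -1.28 to -0.44. Of 22 genes of glucuronidation and sulfation 18 had positive values (median 0.21, with 5 higher and 1 lower at an unadjusted p under 0.05). Of 26 genes of lipogenesis and glycolysis 20 had positive values (median 0.18), and the median was 0.03 without low-iron replicate 1 and 0.03 without sufficient-iron replicate 6. Of 20 tested targets of hypoxia-inducible factors, whose prolyl hydroxylases use iron, 2 stood at an unadjusted p under 0.05 (median -0.08). One of them, Bnip3, a mitophagy receptor gene, was at 175, 140.4 and 215 CPM on low iron and 133, 115 and 155 CPM on sufficient iron, and the diets overlapped. Among 24 cholesterol synthesis genes the median was -0.09, and -0.32 without low-iron replicate 1, in which this list was highest. Hsd17b7, of the later steps, was at 101, 83.03 and 76.5 against 105, 105 and 120.2 CPM, and Idi1, the isopentenyl isomerase gene, at 292, 222 and 237 against 293, 343 and 352 CPM. Both were without overlap. Of 22 bile acid genes 18 had positive values (median 0.18, or 0.11 without sufficient-iron replicate 6), with Slc27a5, which couples bile acids to coenzyme A, at 549.7, 619 and 582 against 464, 381 and 433 CPM. The acute phase list had a median of -0.05 with members on both sides: Saa4, a constitutive serum amyloid gene, was at 167, 185 and 166 against 134, 101 and 133 CPM and Crp at 373, 391 and 388 against 323, 308 and 284 CPM, without overlap. Lcn2, which binds bacterial iron carriers, overlapped at 2.50, 0.988 and 3.49 against 2.08, 11.1 and 4.08 CPM.

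Genes for zinc and copper handling had a median of 0.01, and Ccs, the copper chaperone of superoxide dismutase, was at 134, 93.2 and 102 against 86.5, 71.6 and 84.5 CPM. Of 24 genes of the unfolded protein response and ATF4, 1 stood at an unadjusted p under 0.05 in each direction (median 0.02). Lymphocyte markers had a median of -0.03, with 0 of 12 at an unadjusted p under 0.05.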
